A study of Rattus norvegicus with 20 samples.

Results

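Genes of the vessel lining and of the signals that guide it were followed in the embryonic rat testis: Pecam1, Kdr, Flt1, Tek, Tie1, Cdh5, Etv2, Vegfa and Nostrin. All probe sets that the platform annotation pairs with these symbols were taken, which gave 12 of the 31042 non-control probe sets on the array. They stand for 8 of the 9 genes, among 14217 genes with a probe set, since no probe set paired with Cdh5, the gene of VE-cadherin, was in the annotation used, and Cdh5 was not analysed here. Of the 12, 11 passed the filter on low signal, as did 22526 probe sets in all. To pass, a signal had to lie at or above the 40th percentile of the probe sets of an array, on 2 arrays or more.

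RNA of Sprague-Dawley rat testes was hybridized to 20 arrays, in 10 groups of 2. In utero, dams had received vinclozolin, a fungicide whose metabolites block the androgen receptor, at 100 mg/kg, or DMSO alone, in daily injections scheduled for days 8 to 14 of pregnancy, with day 0 the day of the sperm-positive smear. Testes were taken at embryonic day 13 (E13), when the injections were not yet complete, and at E14 and E16. In culture, E13 gonads with the mesonephros attached were kept for 3 days with 50 µM vinclozolin in DMSO or 0.5 µM of the antiandrogen flutamide in ethanol, and the contralateral gonads of the same embryos received DMSO or ethanol alone. The mesonephros was removed from the cultured testes before RNA was taken, and the labels used here do not state such a step for the gonads of the in utero groups. Replicates are labelled as biological, but separate litters or pools are not stated, so the tests rest on a spread between arrays that may be partly technical.

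Endothelial cells receive VEGF, made by the surrounding tissue, through the receptor tyrosine kinases KDR and FLT1, and settle into stable vessels under angiopoietins, which act on TEK with TIE1 as co-receptor. In the mouse testis, endothelial cells move in from the mesonephros soon after sex determination, build the vessel under the gonad surface, and take part in the partitioning of the tissue into cords. ETV2 is an ETS-family transcription factor that, in mouse and zebrafish embryos, starts the endothelial and blood programme, and ETS factors recognise the core letters GGAA in DNA.

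The upstream windows of 3 genes are shown because Kdr, Tie1 and the first Vegfa probe set kept their lower call at E16 relative to E14, described next, under all 21 alternatives tried. The second Vegfa probe set kept it under 20, losing it in the vinclozolin arrays alone (adjusted p = 0.0975). They come from the RefSeq promoter table (GRCr8 assembly), which held windows for 4 of the 9 genes, and only bases outside the annotated gene are printed. Capitals mark the ETS core GGAA, or TTCC where it lies on the other strand.
Kdr, chr14:32571813-32572030, plus strand: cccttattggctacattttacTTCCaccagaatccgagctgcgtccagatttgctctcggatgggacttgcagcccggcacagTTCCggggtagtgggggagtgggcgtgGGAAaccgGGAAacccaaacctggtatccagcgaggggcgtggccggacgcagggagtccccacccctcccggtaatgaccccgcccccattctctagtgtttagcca
Tie1, chr5:137305048-137305231, minus strand: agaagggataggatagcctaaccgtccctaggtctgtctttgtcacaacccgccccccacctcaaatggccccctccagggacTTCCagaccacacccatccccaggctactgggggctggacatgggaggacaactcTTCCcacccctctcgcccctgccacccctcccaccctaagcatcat
Vegfa, chr9:22452604-22452853, plus strand: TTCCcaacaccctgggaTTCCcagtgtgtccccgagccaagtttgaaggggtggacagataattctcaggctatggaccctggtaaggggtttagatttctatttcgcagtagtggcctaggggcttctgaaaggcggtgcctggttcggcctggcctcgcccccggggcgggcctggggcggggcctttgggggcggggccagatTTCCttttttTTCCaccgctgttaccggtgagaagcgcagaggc
The core occurred 4 times upstream of Kdr, 2 times upstream of Tie1 and 4 times upstream of Vegfa, counting both strands. It is a common word: 90.7%, 87.1% and 93.2% of 33469 promoter windows, cut to the same lengths of 218, 184 and 250 bases, held at least 1. The GATA core (GATA or TATC) occurred 1, 2 and 1 times, against 52.1%, 47.6% and 55.9% of windows with a match. The GC box (GGGCGG or CCGCCC) occurred 1, 1 and 3 times, against 27%, 21.6% and 30.5% of windows. The hypoxia-response core ACGTG, or CACGT, was not found in the 3 windows and was held by 14.5%, 12% and 16.6% of windows. None of the matches of different motifs overlapped, and a match is a description of these letters, not evidence of a bound site.

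The values are signal intensities on a linear scale, as deposited, and arrays of an experiment share a trimmed mean. Differences are of log2(intensity + 16), so those of dim probe sets are understated, and all p-values are from limma with Benjamini-Hochberg adjustment over the 22526 probe sets, called at 0.05. Because the tissue was measured whole, fewer endothelial cells and less RNA per endothelial cell cannot be told apart. Some arrays stood apart. The E13 arrays numbered 1 had Xist at 896.0 (vinclozolin) and 758.6 (vehicle), where those numbered 2 had 17.9 (vinclozolin) and 20.4 (vehicle), and a vehicle array at E14, numbered 1, had Fos at 1534.6 and the mesonephric duct gene Gata3 at 471.9, where its replicate had Fos at 39.8 and Gata3 at 100.2. These are called the 3 doubtful arrays here. The E14 vinclozolin array numbered 2 had Xist at 489.9 and Fos at 289.2, where its replicate had 32.0 and 18.3. In the flutamide culture set the ratio of 3' to 5' beta-actin signal was 9.08 to 11.1, against 1.73 to 3.47 in utero and 2.67 to 3.90 in the vinclozolin culture. The flutamide culture set also had Fos at 973.9 to 1289.4, against 69.7 to 84.4 in the vinclozolin culture. On the scale as deposited, Xist was at 168.2 to 211.9 on the arrays of the flutamide culture set. In the vinclozolin culture set Xist was at 112.8 on vinclozolin array 2 and at 5.1 to 5.4 on the others. The E14 vehicle arrays had Xist at 174.9 and 184.4, against 2.4 to 16.6 at E16. The part of these differences in the results was not tested.

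In utero, the endothelial receptors Tie1 and Kdr and the junction protein gene Pecam1 rose at E14 relative to E13 and fell at E16 relative to E14. The Pecam1 fall kept its call in 11 of 21 alternatives only. Vegfa, by contrast, passed no test at E14 and fell at E16, and Etv2 fell at both steps. Tek, Flt1 and Nostrin did not pass the test at either step. The stage tests take the 4 arrays of a stage as independent. Deviations of same-numbered vehicle and vinclozolin arrays correlated at 0.60 at E13, -0.05 at E14 and -0.11 at E16. For comparisons with E13 the SEs and p-values may therefore be too small. With both treatments averaged (4 against 4 arrays), 3 of 11 member probe sets rose at E14, against 13.1% of all tested probe sets, and 1 fell, against 12%. From E14 to E16, 6 of 11 fell, against 23.2% of all tested probe sets, and 0 rose, against 18.3%. At E16 relative to E13, 4 of 11 fell, against 9.3%, and 0 rose, against 9.45%. One of the 4, the second Vegfa probe set (-0.69, adjusted p = 0.0263), kept its call in 11 of 21 alternatives and lost it without any single E16 array or without either E13 array numbered 1. By gene, the median E14 difference over the 8 members was 0.13 against 0.09 over all genes, and the median E16 difference was -0.63 against -0.04.

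**Figure D1:**
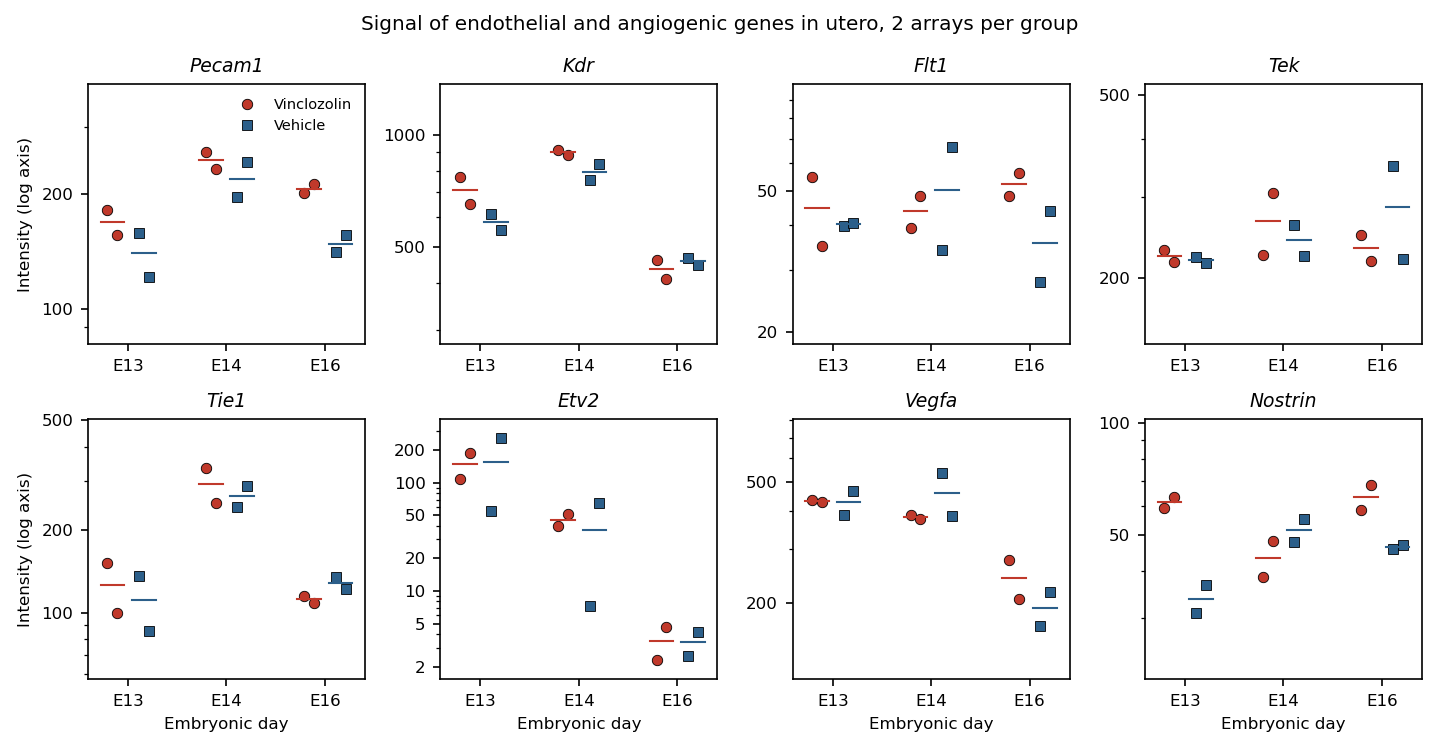
Intensity (log axis) of 8 genes in utero at E13, E14 and E16, with vinclozolin arrays as circles left of vehicle arrays as squares and each bar the mean of 2 arrays. Tie1 at E14 lies between 242.7 and 335.4, above all E13 and E16 arrays, while Etv2 drops below 5 on all 4 E16 arrays.

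Tie1 (chr5:137285408-137305047 on GRCr8, as for all gene positions here), the co-receptor that modulates TEK signalling, had 151.9 and 99.8 in vinclozolin and 135.4 and 86.1 in vehicle testes at E13. At E14 it had 335.4 and 249.9 in vinclozolin and 242.7 and 288.8 in vehicle testes, and at E16 115.1 and 108.5 in vinclozolin and 134.5 and 122.0 in vehicle testes. All 4 E14 arrays were above all 8 arrays of the other stages, and E16 arrays overlapped those of E13. Of all tested probe sets, 12.3% were higher at E14 than at E13 without overlap, and 19.1% were lower at E16 than at E14. The E14 minus E13 difference was 1.15 ± 0.16 (log2, SE; 2.23-fold, adjusted p = 0.000234), and it was also called within vinclozolin testes alone (1.13, adjusted p = 0.00473), where 7.71% of all probe sets rose, and within vehicle testes alone (1.18, adjusted p = 0.0192), where 1.26% did. The E16 minus E14 difference was -1.11 ± 0.16 (adjusted p = 6.73e-05), so that E16 differed from E13 by 0.04, with a 95% interval from -0.30 to 0.39.

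Kdr (chr14:32572031-32615204) is the main signalling receptor for VEGF-A on endothelium. It had 770.5 and 651.6 in vinclozolin and 610.9 and 556.6 in vehicle testes at E13, then 908.1 and 883.4 in vinclozolin and 755.9 and 831.8 in vehicle testes at E14. At E16 it had 460.2 and 411.2 in vinclozolin and 468.1 and 447.6 in vehicle testes. The 4 E16 arrays were below all 8 earlier arrays, whereas 1 E13 array lay within the E14 range. Of all tested probe sets, 19.1% were lower at E16 than at E14 without overlap, and 11.6% were lower at E16 than at E13. Kdr rose at E14 by 0.38 ± 0.11 (1.30-fold, adjusted p = 0.0182) and fell at E16 relative to E14 (-0.89 ± 0.11, adjusted p = 1.52e-05), ending below its E13 level (-0.51 ± 0.11, adjusted p = 0.00353). The E14 rise kept its call in 16 of 22 alternatives. It was lost without E13 vehicle 2, without E13 vinclozolin 2 or without E14 vehicle 2. It was also lost with the compared arrays fitted alone, within vehicle testes alone and within vinclozolin testes alone. The E16 minus E13 call was lost without both E13 arrays numbered 1 (-0.42) and within vehicle testes alone (-0.34, adjusted p = 0.204). A second Kdr probe set reached at most 16.3 on any array and was not tested.

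Pecam1 (chr10:92090263-92152002), whose product joins endothelial cells at their contacts, had 182.0 and 156.4 in vinclozolin and 158.9 and 121.6 in vehicle testes at E13. It had 258.5 and 233.4 in vinclozolin and 196.4 and 242.4 in vehicle testes at E14, and 201.6 and 212.4 in vinclozolin and 141.0 and 156.5 in vehicle testes at E16. Every E14 array was above every E13 array, as for 12.3% of all tested probe sets, and both E16 vinclozolin arrays lay within the E14 range. The rise at E14 was 0.55 ± 0.13 (1.46-fold, adjusted p = 0.00532), a call kept in 19 of 22 alternatives and lost with the compared arrays, the vehicle arrays or the vinclozolin arrays fitted alone (adjusted p up to 0.0789). The fall at E16 relative to E14 was -0.37 ± 0.13 (adjusted p = 0.0265), a call that remained in 11 of 21 alternatives. It was lost without E14 vehicle 2, E14 vinclozolin 1, E16 vehicle 1 or either E16 vinclozolin array. It was also lost under quantile normalization and with the in utero arrays or the compared arrays fitted alone. Within vehicle testes alone and within vinclozolin testes alone it was not called either. Over the alternatives the difference ranged from -0.51 to -0.23.

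Tek (chr5:114722815-114849535) is the receptor for angiopoietins. It had 230.2 and 216.5 in vinclozolin and 222.1 and 215.2 in vehicle testes at E13, 224.7 and 305.9 in vinclozolin and 260.7 and 222.7 in vehicle testes at E14, and 247.8 and 217.6 in vinclozolin and 350.5 and 220.2 in vehicle testes at E16. The stages overlapped, and the E14 minus E13 difference was 0.17 with a 95% interval from -0.17 to 0.52 (adjusted p = 0.458). Between E16 and E14 it was 0.01, with an interval from -0.33 to 0.36. Flt1 (chr12:12333050-12504750), the VEGF receptor that binds ligand tightly but signals weakly, was near the filter threshold on its 3 probe sets, which were at or above it on 11, 4 and 3 of 20 arrays. The first of them ranged over 34.9 to 54.6 at E13, 34.1 to 66.5 at E14 and 27.7 to 56.2 at E16, which overlap. Its E14 difference was 0.09 (95% interval -0.32 to 0.51), and those of the other 2 probe sets were 0.30 and 0.26, none of them called. Nostrin (chr3:74312594-74378852), whose product binds endothelial nitric oxide synthase and moves it from the cell surface, ranged over 30.8 to 63.4 at E13, 38.7 to 55.4 at E14 and 45.8 to 68.2 at E16. Its E14 difference was 0.03 and its E16 minus E14 difference 0.15, with neither past the test.

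Vegfa (chr9:22452854-22468194), the ligand of KDR and FLT1, is measured by 2 probe sets. On the first of them it had 436.5 and 428.3 in vinclozolin and 388.3 and 468.1 in vehicle testes at E13. At E14 it had 388.7 and 376.3 in vinclozolin and 537.0 and 385.0 in vehicle testes, and at E16 275.6 and 205.6 in vinclozolin and 167.7 and 216.8 in vehicle testes. The E13 and E14 arrays overlapped and the 4 E16 arrays were below them all. For 19.1% of all tested probe sets the E16 arrays were below the E14 arrays, and for 11.6% below the E13 arrays. Vegfa differed by -0.04 (95% interval -0.32 to 0.24) at E14 relative to E13 and fell at E16 relative to E14 on both probe sets (-0.92 ± 0.13, adjusted p = 6.83e-05, and -0.87 ± 0.21, adjusted p = 0.00304). The second probe set ranged over 69.3 to 127.4 at E13, 85.7 to 136.2 at E14 and 54.5 to 62.4 at E16, with the E16 arrays again below all the earlier ones.

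Etv2 (chr1:95017980-95021582) is the transcription factor of the set. At E13 it had 108.1 and 189.3 in vinclozolin and 55.2 and 257.0 in vehicle testes. At E14 it had 39.8 and 51.1 in vinclozolin and 7.3 and 65.6 in vehicle testes, and at E16 2.3 and 4.6 in vinclozolin and 2.5 and 4.2 in vehicle testes. It was above the filter threshold on all 4 E13 arrays, on 3 of 4 at E14 and on none at E16, where its percentile on the array was 4.7 to 10.2. The difference was -1.53 ± 0.39 at E14 relative to E13 (adjusted p = 0.00909) and -1.41 ± 0.39 at E16 relative to E14 (adjusted p = 0.00772). Without E14 vehicle 1, E13 vehicle 1 and E13 vinclozolin 1 together these were -1.74 and -1.87, both still called. The first step kept its call in 19 of 22 alternatives. It was lost with the compared arrays fitted alone, within vehicle testes alone and within vinclozolin testes alone (adjusted p up to 0.0996). The second step lost its call without E14 vehicle 2 (-0.96) and within vehicle testes alone (adjusted p = 0.134). Within both E13 groups the lower Etv2 value was on the array numbered 1, where Amh, the hormone of Müllerian duct regression, was lower as well (372.4 against 1102.2 in vinclozolin and 106.0 against 1484.7 in vehicle testes). Whether the state of those arrays had a part in the Etv2 levels was not tested.

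**Figure D2:**
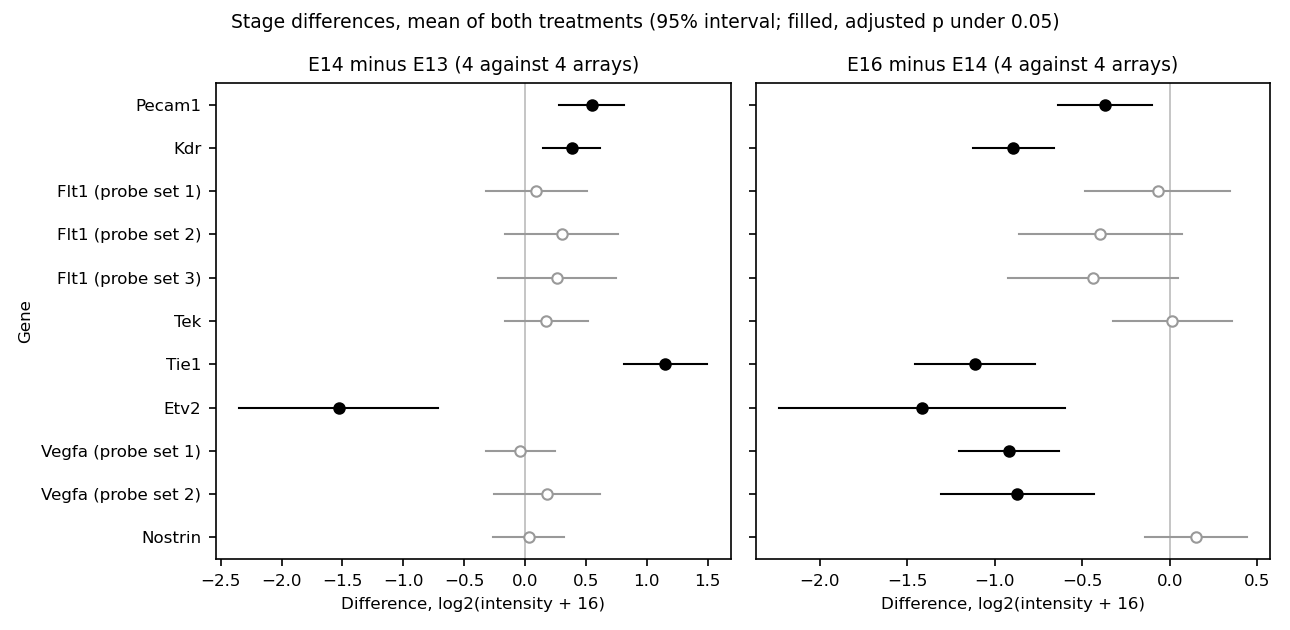
Difference in log2(intensity + 16) at E14 minus E13 (left) and E16 minus E14 (right) for the 11 tested probe sets, as the mean of both treatments with its 95% interval and filled points where the adjusted p was under 0.05. Tie1 moves by 1.15 and then -1.11, and Etv2 lies below 0 in both panels, at -1.53 and -1.41.

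Across the 12 arrays in utero, Tie1 correlated with Kdr (Pearson's r = 0.79) and with Pecam1 (0.78), Kdr with Vegfa (0.74) and Etv2 with Vegfa (0.68), whereas Tek was near 0 with Kdr (0.01) and with Pecam1 (-0.01). These are descriptions over arrays that share their stage. The profile of Pecam1, Kdr, Flt1, Tek and Tie1 together was most like that of Aph1a (r = 0.951), a subunit of gamma-secretase, followed by Gpd1l1 (0.945) and Rara (0.924), the retinoic acid receptor alpha, among 11669 other genes. The next were Trim25 (0.911), Rhbdf2 (0.909), Dll4 (0.908), Mras (0.907), Fbxo46 (0.904), Abcd4 (0.904) and Rnf41 (0.904). Of these 10, Dll4, the Notch ligand of endothelial tip cells, is an endothelial gene of the lists that follow. It had a mean of 47.1 at E13, 95.3 at E14 and 37.9 at E16.

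Other genes, of lists chosen here for the vessel wall, were also higher at E14, where 13.1% of all tested probe sets rose and 12% fell. Of 25 tested genes of the endothelial surface and junctions, 15 rose at E14 and none fell, with a median difference of 0.56 against 0.09 over all genes. Among them were Eng, a TGF-beta co-receptor (1.15), Ramp2, a partner of the adrenomedullin receptor (0.93), Esam, a junction molecule (0.94), and Aplnr, the apelin receptor (1.03). Eng had a mean of 441 at E14 and 188 at E13 (4 arrays each), with no overlap, as for 23.4% of all tested probe sets. Of 20 genes listed here as endothelial transcription factors, 8 rose and none fell (median 0.39). Klf4 (0.97), the hypoxia-inducible factor Epas1 (0.69), Sox7 (0.94) and Ets2 (0.67) led. On the deposited scale Klf4 had 169.8 and 117.7 in DMSO cultures against 68.4 and 62.7 in E13 vehicle testes. There, 13 of the 25 surface genes fell and 0 rose. Which cells of the testis held the RNA of these factors was not tested. Of 10 genes of the Notch and ephrin list, 6 rose and 1 fell (median 0.59). Among the risers were Notch1 (0.89), Dll4 (0.81), Unc5b (0.62) and the venous ephrin receptor Ephb4 (0.73). Unc5b is in this list but is neither a Notch nor an ephrin gene.

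At E16 the direction was the opposite. Of all tested probe sets, 23.2% fell relative to E14 and 18.3% rose. Of the same 25 surface genes, 15 fell relative to E14 and 2 rose, with a median of -0.75 against -0.04 over all genes. Plvap, which forms the diaphragms of fenestrated capillaries, had a mean of 234 at E16 and 1050 at E14 (-2.07 ± 0.14, adjusted p = 8.03e-08), and Mmrn2 (-1.63) and Rasip1 (-1.06) also fell. Cav1, of caveolae, went the other way and rose (1.56). Of the transcription factors 8 of 20 fell and none rose, with Epas1 (-1.38), Sox7 (-1.51), Elk3 (-0.72) and Sox18 (-1.14) leading. In the Notch and ephrin list 5 of 10 fell and 1 rose, with Unc5b (-1.33), Hey1 (-1.29), Ephb4 (-1.25) and Notch1 (-0.99) leading. Without the 3 doubtful arrays, 14 of 25 surface genes rose at E14 and none fell, and 15 fell and 2 rose at E16. Without E14 vinclozolin 2, 15 rose and 1 fell at E14, and 17 fell and 2 rose at E16. Without the 3 arrays 9 of the 20 transcription factors and 6 of the 10 Notch and ephrin genes rose at E14 and none fell, and at E16 10 and 5 fell.

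**Figure D3:**
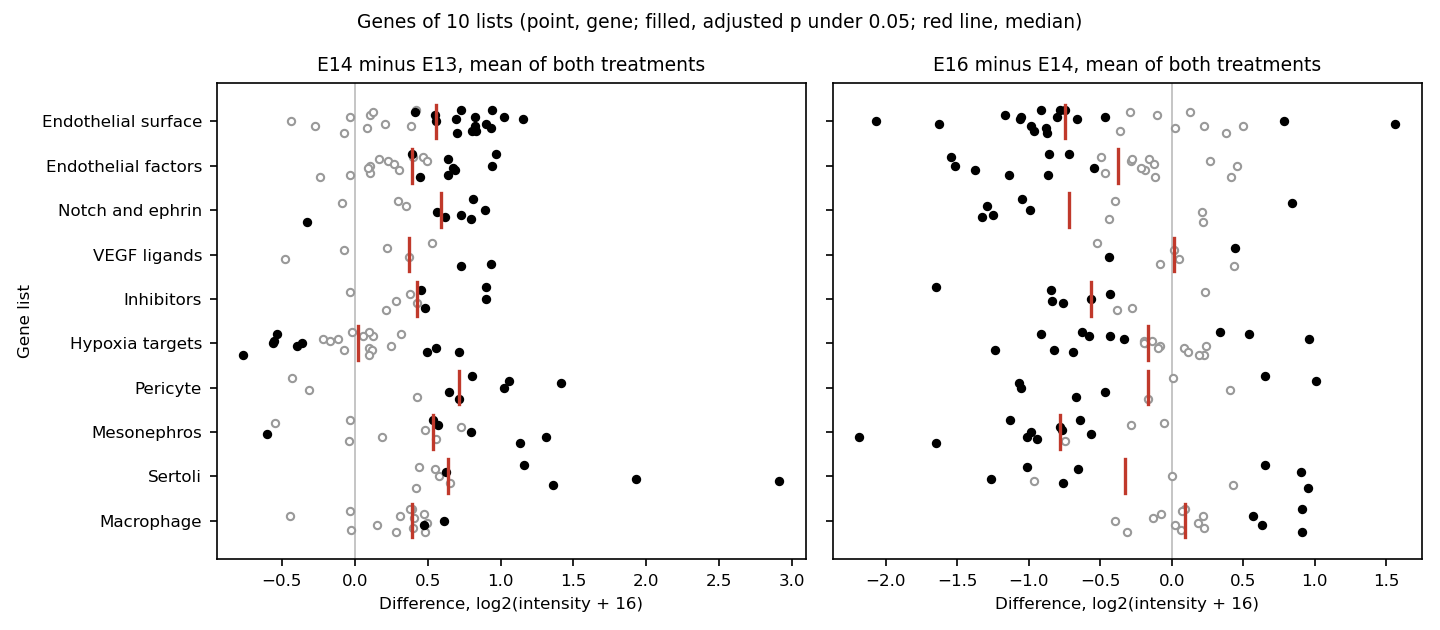
Difference in log2(intensity + 16) of each tested gene of 10 lists at E14 minus E13 (left) and E16 minus E14 (right), filled where the adjusted p was under 0.05, with the list's median as a red line. The endothelial surface list has its median at 0.56 on the left and -0.75 on the right, and the mesonephros list at 0.54 and -0.78.

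Ligands and inhibitors were tested as lists of their own, beside the same shares of all tested probe sets. Of 7 other genes of the VEGF system, 2 rose at E14, the ligands Vegfd (0.94) and Pgf (0.73), and none fell. At E13 Pgf had 24.0 and 57.7 in vinclozolin and 31.2 and 52.2 in vehicle testes, with the doubtful arrays first. At E14 it had 90.6 and 61.4 in vinclozolin and 91.0 and 64.8 in vehicle testes. Without the 3 doubtful arrays the median over the 7 genes was 0.27, against 0.04 over all genes. At E16 relative to E14, Vegfc, the lymphatic growth factor, rose (0.44) and Vegfb fell (-0.44), and the other 5 did not pass. Of 4 tested angiopoietin-related genes, Angpt2, the TEK antagonist, fell at E14 (-0.59, adjusted p = 0.0311) and Angptl2 rose (0.54), but none of the 4 was called without the 3 doubtful arrays or without both E13 arrays numbered 1. Of 9 genes listed here as inhibitors of angiogenesis, a list that also holds Vash2, 4 rose at E14 and none fell. Among the risers were Vash1 (0.90), a feedback inhibitor made by endothelium, and Col18a1 (0.90), the source of endostatin. At E16, 6 of the 9 fell, with Col18a1 at -1.65. Of 15 other angiogenic factors and guidance genes, 5 rose and 4 fell at E14, with the endothelial TGF-beta receptor Acvrl1 (1.03) and Tgfb1 (1.29) among the risers, and 1 rose and 5 fell at E16. Without the 3 doubtful arrays 4 rose and none fell at E14, without both E13 arrays numbered 1 it was 5 and none, and without E14 vinclozolin 2 it was 5 and 3. Of 22 genes of a hypoxia-response list, Hif1a itself among them, 3 rose and 6 fell at E14, where 13.1% and 12% of all tested probe sets did. At E16 3 rose and 8 fell, where 18.3% and 23.2% did. Without the 3 doubtful arrays it was 1 and 5 at E14 and 3 and 7 at E16. The genes that fell at E16 held the glucose transporters Slc2a3 (-1.24) and Slc2a1 (-0.91).

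Markers of other cells also differed between stages, and the same shares of all tested probe sets apply. Of 13 mesonephros and epithelial genes, 5 rose and 1 fell at E14 and 10 fell and none rose at E16. Their summed intensity ran over 4475 to 4658 in vinclozolin and 5017 to 5072 in vehicle testes at E13, 5023 to 5154 in vinclozolin and 5013 to 6404 in vehicle testes at E14, and 3204 to 3301 in vinclozolin and 3053 to 3563 in vehicle testes at E16. Called at E14 with the smallest p were Krt18 (0.80), Epcam (0.57), Emx2 (-0.60) and Cdh16 (1.31), and at E16 Cdh16 (-2.19), Krt18 (-0.98), Cldn7 (-1.65) and Krt8 (-0.94). The duct factors Pax2 and Pax8, named here as defining markers, differed by -0.03 and 0.19 at E14 relative to E13, and neither was called. Without the 3 doubtful arrays, the median over the 13 was 0.40 at E14 and -0.52 at E16, against 0.04 and -0.03 over all genes. Without E14 vinclozolin 2, that median was 0.50 at E14 and -0.76 at E16, against 0.09 and -0.05. Of 9 pericyte genes, 6 rose at E14, led by Cspg4 (1.42). Rgs5 was not among them. It had 129.2 and 101.3 in vinclozolin and 185.4 and 79.8 in vehicle testes at E13. At E14 it had 70.5 and 51.2 in vinclozolin and 224.1 and 55.9 in vehicle testes, with 224.1 on the doubtful array. Of 13 erythroid genes 3 rose at E14. The median over the 13 was -0.23 without the 3 arrays and 0.19 without E14 vinclozolin 2, against 0.04 and 0.09 over all genes. Of 10 Sertoli genes 5 rose at E14 and none fell (7 and none without the 3 arrays), and at E16 3 rose and 4 fell (3 and 5), with a median of -0.32 (-0.66). Of 6 germ cell genes 2 rose at E14 (3 without the 3 arrays, 0 without E14 vinclozolin 2), and 2 fell at E16 (4 without the 3 arrays). Of 10 Leydig genes 4 rose at E14 and 9 at E16. Of 15 macrophage genes, 2 rose at E14, near the share of all probe sets, and 4 at E16 (0 and 5 without the 3 arrays). The part of these cells in the vessel genes' differences was not tested.

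With vinclozolin in utero none of the members passed the test at any stage. With limma, 0 of 11 probe sets passed at E13 or E16, where 0% of all probe sets did, at E14, where 0.00444% did, or as the mean of the 3 stages, where 0% did. At an unadjusted p under 0.05 there were 1 of 11 at E13 (Nostrin), 0 at E14, 1 at E16 (Pecam1) and 2 in the mean of the stages (both), where 1.78%, 5.5%, 6.69% and 4.1% of all tested probe sets were. Nostrin at E13 had 59.3 and 63.4 in vinclozolin against 30.8 and 36.7 in vehicle testes, without overlap, as for 24.4% of all probe sets, and a difference of 0.64 ± 0.20 (adjusted p = 1.00). At E14 its order was turned, with 38.7 and 48.3 in vinclozolin and 47.9 and 55.4 in vehicle testes (-0.19 ± 0.20), and at E16 it had 58.3 and 68.2 in vinclozolin against 45.8 and 47.0 in vehicle testes (0.34 ± 0.20). A difference of its vinclozolin effect between stages gave an adjusted p of 0.983 by limma's moderated F test, with no smaller unadjusted p for the other members. The E14 effect minus the E13 effect was -0.83 (adjusted p = 0.833).

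Pecam1 averaged over the stages was higher in vinclozolin than in vehicle testes by 0.28, with a 95% interval from 0.07 to 0.50 (adjusted p = 0.998), and its E16 values of 201.6 and 212.4 in vinclozolin against 141.0 and 156.5 in vehicle testes did not overlap, as for 39.2% of all probe sets (0.44 ± 0.18, adjusted p = 0.670). For Kdr the mean difference was 0.13 (interval -0.06 to 0.31), for Tie1 0.04 (-0.24 to 0.32), for Tek -0.03 (-0.31 to 0.24), for Vegfa 0.03 (-0.21 to 0.26) and for Etv2 0.23 (-0.44 to 0.90). At E13 all 11 member differences were above 0, with a median of 0.20 against 0.01 over all probe sets, but at E14 and E16 only 6 and 7 of 11 were. A change of the vinclozolin effect with stage was called for none of the members, and for Etv2 the 95% interval of that change at E14 relative to E13 ran from -1.34 to 1.93. Of the 25 surface genes, 20 transcription factors and 10 Notch and ephrin genes, none was called in the mean of the 3 stages, with medians of 0.02, -0.02 and 0.06.

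**Figure D4:**
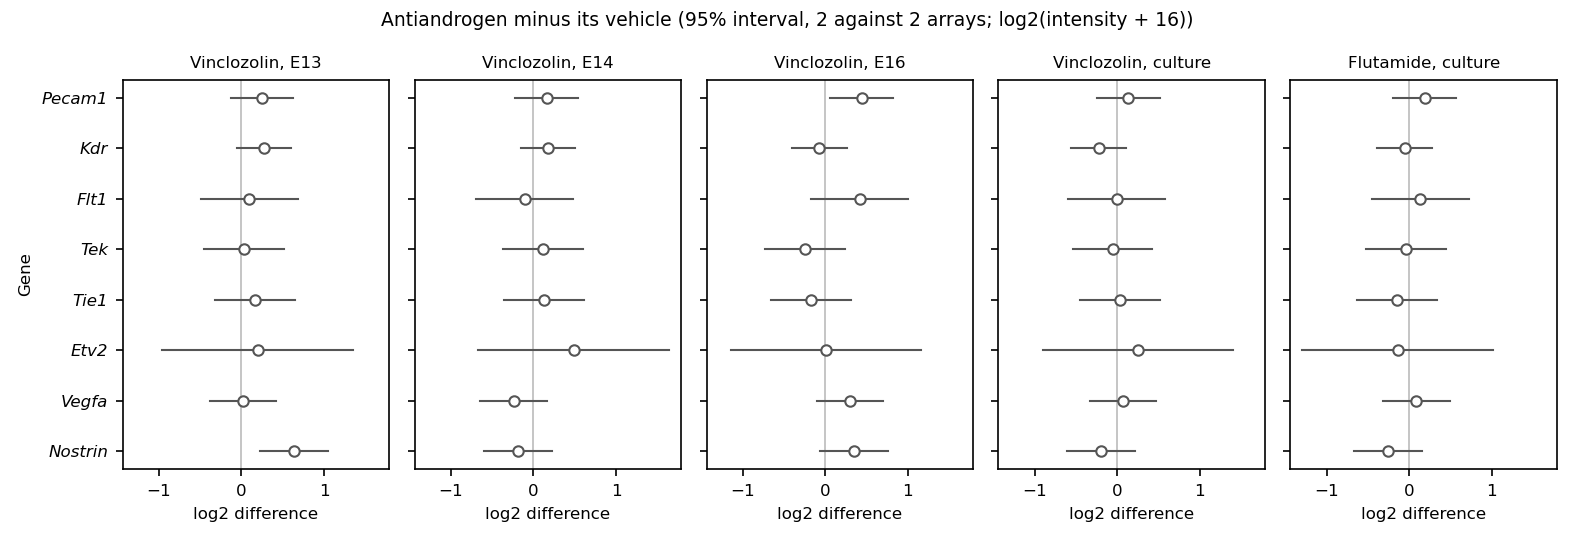
Vinclozolin or flutamide minus its own vehicle, in log2(intensity + 16), for 8 genes with 95% intervals, 2 against 2 arrays per panel. No point passed the adjusted test, and the intervals lie apart from 0 for Nostrin at E13 (0.64) and Pecam1 at E16 (0.44).

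In culture, none of the members passed the test with either antiandrogen. Vinclozolin at 50 µM against DMSO gave 0 of 11 called where 0% of all probe sets were, with none of the members at an unadjusted p under 0.05. Flutamide at 0.5 µM against ethanol also gave 0 of 11 where 0% were, with 1 of 11 under 0.05 unadjusted, a Flt1 probe set with 40.4 and 31.6 with flutamide and 10.0 and 15.6 with ethanol (0.85, interval 0.17 to 1.54, adjusted p = 1). This probe set was at or above the filter threshold on 3 arrays, both flutamide arrays and E14 vehicle 2. Without the flutamide arrays it would have failed the filter, so it was tested only through the group where it was high. On the other Flt1 probe sets flutamide and ethanol values overlapped, with means of 26.05 against 21.95 and of 20.3 against 16.05. Kdr had 176.7 and 177.7 with vinclozolin and 201.7 and 218.9 with DMSO, without overlap, as for 28.8% of all probe sets (-0.23, 95% interval -0.56 to 0.10), and 212.9 and 222.8 with flutamide and 194.5 and 264.9 with ethanol, with overlap (-0.06, interval -0.38 to 0.27). Nostrin was lower without overlap in both, as 13.3% of all probe sets were with vinclozolin and 16.9% with flutamide, at 63.9 and 61.7 with vinclozolin and 78.3 and 70.1 with DMSO (-0.19, interval -0.61 to 0.22), and at 62.3 and 50.8 with flutamide and 66.3 and 75.0 with ethanol (-0.26, interval -0.67 to 0.15). Doses, vehicles and array sets differ between the compounds, so their values stand side by side without an order.

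Cultured testes were set against E13 vehicle testes of the in utero experiment, the stage at which the cultures began but not their starting tissue, and against E16 vehicle testes. The 3 experiments were scaled apart, so arrays were brought to a common trimmed mean of 210.1 for this, and culture cannot be told apart from the array set. In DMSO cultures relative to E13 vehicle testes, 4 of 11 member probe sets fell, against 10.3% of all tested, and 1 rose, against 10.2%. On the common scale Kdr had 194 and 211 in DMSO cultures against 611 and 557 in E13 vehicle testes (-1.46 ± 0.16, adjusted p = 1.70e-05). Tek had 51.8 and 70.9 in DMSO cultures against 222 and 215 in E13 vehicle testes (-1.61 ± 0.23, adjusted p = 0.000196). Both receptors were about as low with vinclozolin in culture, Kdr at 170 and 171 and Tek at 65.6 and 50.9.

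Vegfa also fell in culture, to 178 and 190 in DMSO cultures against 388 and 468 in E13 vehicle testes (-1.14 ± 0.19, adjusted p = 0.000645), and its second probe set had -0.84 (adjusted p = 0.0710). Etv2 had 2.7 and 6.3 in DMSO cultures against 55.2 and 257.0 in E13 vehicle testes (-2.77 ± 0.57, adjusted p = 0.00308), and this call was lost without E13 vehicle 2. Nostrin rose, to 75.4 and 67.5 in DMSO cultures against 30.8 and 36.7 in E13 vehicle testes (0.82 ± 0.20, adjusted p = 0.00889), a call lost without E13 vehicle 1 or without the first DMSO array. Pecam1 (-0.37, adjusted p = 0.159) and Tie1 (-0.51, adjusted p = 0.133) did not pass, though all their DMSO values lay below the E13 vehicle values, as for 29.7% of all probe sets.

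Set against E16 vehicle testes, 3 of 11 probe sets fell in DMSO cultures, against 9.95% of all tested, and none rose, against 12%. Tek had 51.8 and 70.9 in DMSO cultures against 351 and 220 in E16 vehicle testes (-1.94 ± 0.23, adjusted p = 4.63e-05). Kdr had 194 and 211 in DMSO cultures against 468 and 448 in E16 vehicle testes (-1.12 ± 0.16, adjusted p = 0.000174). Tie1 had 83.8 and 60.8 in DMSO cultures against 134 and 122 in E16 vehicle testes (-0.72 ± 0.23, adjusted p = 0.0342), a call that remained in 8 of 14 alternatives and was lost without either E16 vehicle array or without DMSO 2. Vegfa and Etv2, low at E16 themselves, differed by -0.05 (95% interval -0.45 to 0.35) and 0.08 (interval -1.14 to 1.29).

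**Figure D5:**
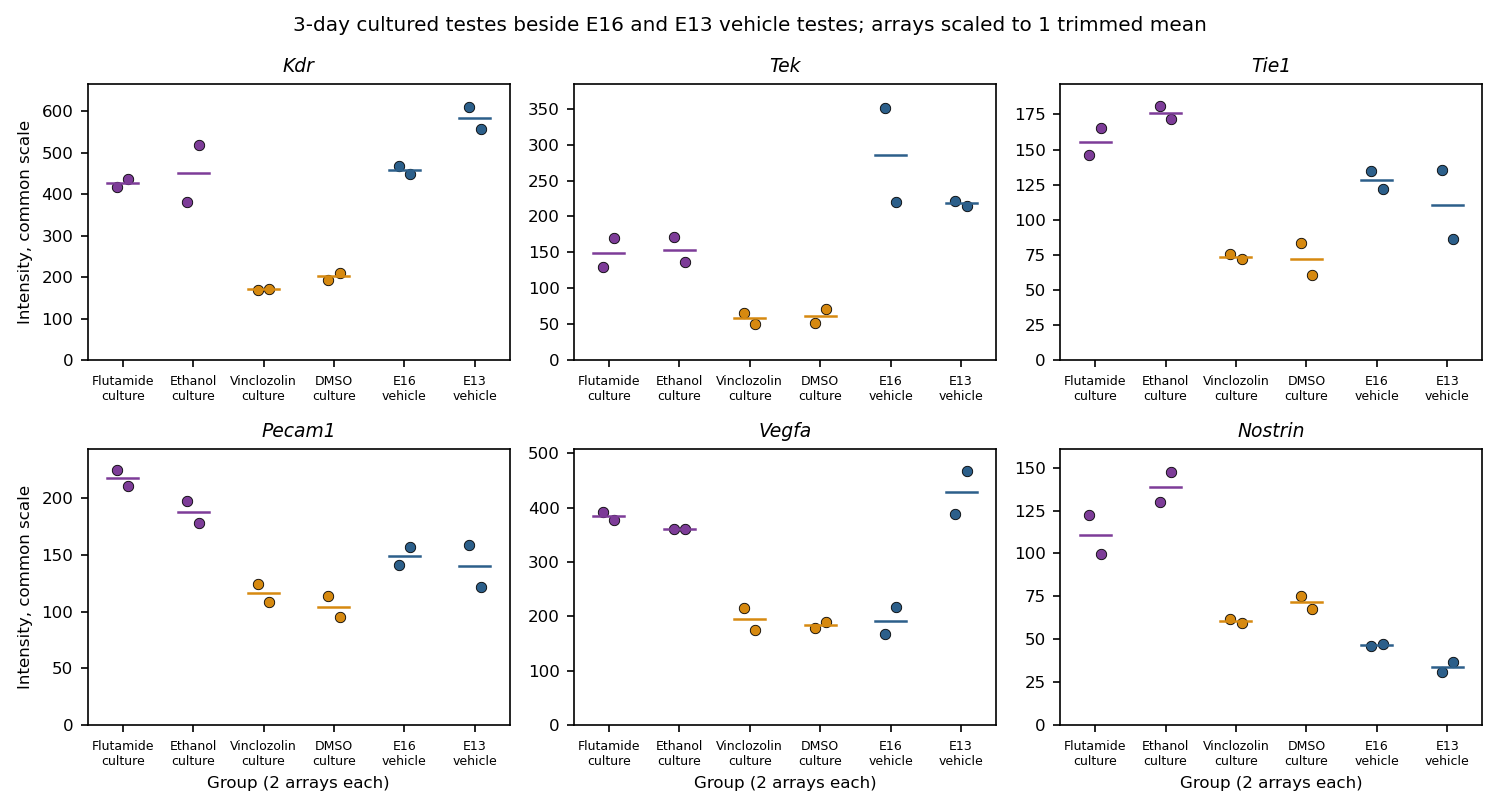
Intensity on the common scale for 6 genes in flutamide, ethanol, vinclozolin and DMSO cultures and in E16 and E13 vehicle testes, 2 arrays each with their mean as a bar. Tek lies at 50.9 to 70.9 in the vinclozolin and DMSO cultures and at 215 to 351 in E16 and E13 vehicle testes, while ethanol and flutamide cultures lie between them at 129 to 171.

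Other endothelial genes were lower in the DMSO cultures too. Of the 25 surface genes, 13 fell in DMSO cultures relative to E13 vehicle testes and none rose (median -0.69 against -0.06 over all genes), with Adgrf5 (-2.04), Aplnr (-2.00), Plvap (-1.25) and Stab1 (-1.39) leading. The count was 8 without E13 vehicle 1. Relative to E16 vehicle testes, 14 of the 25 fell and none rose (median -0.84), with Cav1 at 154 in DMSO cultures and 1208 in E16 vehicle testes on average. Of the Notch and ephrin genes, 4 of 10 were higher and 1 lower relative to E16, among them Dll4 (1.12) and Hey1 (0.81), whereas the arterial factor Hey2 fell (-1.18). Of 13 red cell genes, 8 fell relative to E13 and 12 relative to E16, with medians of -2.20 and -2.85. Of all tested probe sets 10.3% and 9.95% fell. Sertoli genes were higher, with 7 of 10 called relative to E13 and 5 of 10 relative to E16. Mesonephros genes had 3 of 13 lower and none higher in both comparisons, and of the 22 genes of the hypoxia-response list 12 fell and 1 rose relative to E13. The part of blood content or of the removed mesonephros in the loss of vessel genes was not tested.

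The ethanol cultures of the flutamide set depended on the scale used. On the common scale, 2 of 11 member probe sets rose relative to E13 vehicle testes, against 19% of all tested, and 2 fell, against 12.9%. Relative to E16 vehicle testes 2 rose, against 24%, and 1 fell, against 14.6%. The median of all tested probe sets was shifted by 0.14 and 0.19 in these comparisons. Nostrin rose relative to E13 (1.64 ± 0.20, adjusted p = 4.03e-05), to 130 and 147 in ethanol cultures against 30.8 and 36.7 in E13 vehicle testes, and Etv2 fell (-2.18 ± 0.57, adjusted p = 0.00937), a call lost without E13 vehicle 2 (-1.21) or without ethanol 1 (-1.56). The second Vegfa probe set fell as well (-1.16, adjusted p = 0.0116), a call lost in 3 of 14 alternatives: with the compared arrays alone, without E13 vehicle 1 or without ethanol 2. Relative to E16 the first Vegfa probe set (0.86, adjusted p = 0.00231) and Nostrin (1.31, adjusted p = 0.000158) rose, but on the scale as deposited these were -0.05 and 0.47 (adjusted p = 0.0503), and neither was called. Tek fell relative to E16 (-0.80 ± 0.23, adjusted p = 0.0124), a call lost without E16 vehicle 1 (-0.48) or ethanol 2 (-0.65), and had -0.47 relative to E13 (adjusted p = 0.124), with Kdr at -0.38 (adjusted p = 0.0766). On the scale as deposited, the median over all genes was -0.80 relative to E13 and -0.78 relative to E16. On that scale Kdr (-1.30) and Tek (-1.32) were called lower than at E13. Tie1, called higher on the common scale (0.63, adjusted p = 0.0466), turned to -0.23. The Tie1 call held in 5 of 14 alternatives. Of the 25 surface genes, 2 rose and 4 fell in ethanol cultures relative to E13 on the common scale (median -0.21 against 0.05 over all genes). On the deposited scale none rose and 17 fell (median -1.01 against -0.80 over all genes). Relative to E16, 3 rose and 9 fell on the common scale. On the deposited scale 1 rose and 16 fell (median -0.92 against -0.78 over all genes). Of the 10 Notch and ephrin genes, 4 rose relative to E13 and 6 relative to E16 on the common scale, and none fell. On the deposited scale 2 rose and 3 fell relative to E13 (median 0.02), and 3 rose and 1 fell relative to E16 (median 0.22). Of the 13 red cell genes, 5 fell relative to E13 and 10 relative to E16 on the common scale, and 9 and 13 on the deposited one.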

How the data were processed

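Rat testis RNA was measured on 20 Affymetrix arrays, 10 groups of 2. The deposited values are linear signal intensities made by the authors with MAS5 and, for some samples, GCOS, per the submitters' processing notes. Their versions are not stated there. The array number limits the precision. Of 31099 probe sets, 57 controls were left out, and 22526 with intensity at or above the 40th percentile on at least 2 arrays were tested. Symbols came from the platform annotation: 1 symbol stood beside 16292 tested probe sets and several beside 366, none of which was named, while 5868 carried none. Values were log2(intensity + 16). Only for culture against in utero, arrays were scaled to a common trimmed mean (2% off each end) of 210.1. limma 3.58.1 (R 4.3.3) fitted 1 mean per group over all 20 arrays, with 10 residual and 6.76 prior degrees of freedom, two-sided tests and Benjamini-Hochberg adjustment, threshold 0.05. The fit was tested on simulated data. Python 3.11.15 and matplotlib 3.10.9 drew the figures. The labels do not tie replicate numbers to embryos or litters, so the numbers were not taken to pair arrays. Deviations of same-numbered arrays correlated at 0.60 (E13), -0.05 (E14), -0.11 (E16), 0.12 (vinclozolin culture) and near 0 (flutamide culture). With the number as a block, 0 members were called for either antiandrogen.

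The members and lists were chosen with earlier results of these data known. All member probe sets were named. For each list the probe set of highest mean stood for a gene, and up to 4 called genes of smallest p per comparison were named. The 10 genes of most similar pattern were ranked by Pearson's r over the 12 in utero arrays, to the mean standardized profile of 5 receptor and junction genes. Alternatives changed the scale, normalization, pseudocount, filter, arrays fitted, variance trend, replicate block and single arrays.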

Additional observations from a re-analysis of the deposited data

How the results depend on the processing

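Of 508 refits of the 29 member values that were called, 442 kept their call and direction, 64 lost the call and 2 reversed (sign changed, with a call under either setting); of 1829 refits of the 114 uncalled values, 13 gained a call and 2 reversed. All 4 reversals came from the deposited scale in ethanol cultures: Pecam1 -0.47 and Tie1 -0.23 relative to E13, and Pecam1 -0.56 and Vegfa -0.0511 relative to E16. Uncalled values that turned there were Tie1 relative to E16 (0.42, then -0.45) and all 3 Flt1 probe sets in both comparisons. On that scale 12717 probe sets (611 higher, 12106 lower) and 6 member genes were called in ethanol cultures relative to E13, against 7177 and 3 on the common scale. Pseudocount 1 gave 0 probe sets for vinclozolin at E14, 5 at E16 and 4 for flutamide in culture, and pseudocount 64 gave 1 for the mean of the stages. Fitting only the arrays compared gave 2325 probe sets and 1 member gene for E14 minus E13 (5643 and 4 in the full fit), 0 for vinclozolin at E14, 1776 for DMSO cultures minus E13 (4610) and 1 member gene for ethanol cultures minus E13. Vinclozolin arrays alone gave 3641 probe sets and 1 member gene for E14 minus E13, 6030 for E16 minus E14 and 1410 for E16 minus E13; vehicle arrays alone gave 659 and 1, 4957 and 3, and 1925. Leaving out 1 array at a time gave 3654 to 6302 probe sets for E14 minus E13, 2748 to 3997 for E16 minus E13 (2436 without both E13 arrays numbered 1), 0 to 4 for vinclozolin at E13, 0 to 272 at E14 (272 without vehicle 2), 0 to 28 at E16 (28 without vehicle 2) and 0 to 9 in the mean of the stages. It gave 1797 to 3585 for DMSO cultures minus E13, 1919 to 3932 minus E16, 3759 to 4994 for ethanol cultures minus E13 and 5346 to 6289 minus E16. Member genes were 3 to 5 for E16 minus E14 (3 without E14 vehicle 2) and 1 to 3 for ethanol cultures minus E13. With the replicate number as a block, 5413 probe sets were called for E14 minus E13 and 9065 for E16 minus E14; the second Vegfa probe set was newly called in DMSO cultures minus E13 (-0.84, adjusted p = 0.0225). The block with crossed numbers at E16, chosen after seeing the data, called 0 probe sets for vinclozolin at E16 and in the mean of the stages. Causes were not tested, and 2 arrays a group limit all comparisons.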
